A study of Mus musculus with 2 samples.

Results

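The type I keratin cluster, the type II keratin cluster and the epidermal differentiation complex (EDC) are 3 gene clusters of skin and hair, examined here for 5-hydroxymethylcytosine (5hmC) in kidney DNA. They were taken as fixed spans of the mouse build mm9, cut into 10 kb bins: 105 bins on chromosome 11, 99050001 to 100100000, 66 bins on chromosome 15, 101200001 to 101860000, and 140 bins on chromosome 3, 91800001 to 93200000. These are 311 of the 264192 bins of chromosomes 1 to 19, X and Y. The bounds are positions in the genome and use no measured value, although the clusters were chosen with earlier results of these data known. The 1 Mb on either side of each cluster, 600 bins in all, served as flanks. In the study, kidney DNA of male C57BL/6 mice aged 6 weeks, a standard inbred strain with no treatment or engineered allele named in the labels, was enriched with an antibody to 5hmC (hMeDIP, 1 library of 11424027 fragments). It was compared with unenriched DNA of the same source (input, 1 library of 8316507 fragments). How many animals gave the DNA is not stated, and whole kidney mixes many cell types, so more cells with the mark and more mark per cell cannot be told apart. Each group is a lone library, so the differences below have no replicate check and compare these libraries, not conditions. All intervals are 95% intervals that cover counting error only.

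The mark is made when TET enzymes oxidise 5-methylcytosine, which in mammals sits mostly at CpG dinucleotides, and in many tissues it is found over the bodies of expressed genes and at enhancers. Keratins are the intermediate filament proteins of epithelial cells and pair as type I with type II. Kidney tubules are lined by simple epithelium, whose keratins include the pair Krt8 and Krt18, whereas epidermis uses Krt5 with Krt14 in its basal layer and Krt1 with Krt10 above it. Hair adds its own keratins and the keratin-associated proteins (Krtap genes) that embed them. The EDC encodes the late proteins of the epidermal barrier. These are the envelope proteins loricrin (Lor) and involucrin (Ivl), the Sprr and Lce families, and the S100-fused proteins filaggrin (Flg), hornerin (Hrnr) and trichohyalin (Tchh).

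The gene order of the clusters was read from RefSeq on GRCm38.p6. That is a later build than mm9, so it served for order only, and no gene was placed in a bin. From Krt222 to Krt42 the type I cluster listed 27 Krt genes in 2 blocks. Between the blocks, after Krt40 and before Krt33a, stood all 23 Krtap genes of the cluster. The type II cluster opened with Krt80 and Krt7 and closed with Krt8 and Krt18. Krt18 is a type I keratin by sequence that lies next to the type II genes, and it is counted with them here. The EDC listed 17 Sprr and 21 Lce entries between Lor and Tchhl1, and the S100-fused genes stood together at its Tchhl1 end. The label of each cluster could be checked only this far, since the files of these libraries carry no gene names.

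Promoter windows of these genes run from 250 bases before to 50 after the gene start in the RefSeq table of GRCm38.p6. They are shown because the measured mark forms mostly at CpG, and the families differ in CpG content. Whether this content bears on the ratios below was not tested. For each cluster a listed gene with the most and one with the fewest CpG are given, a single one of them where several tie, and Krt18 is added as a keratin of simple epithelium. Capitals mark CpG, and each run reads 5′ to 3′ on the strand of the gene. Krt7 (chr15:101412153-101412452, plus strand) is a type II keratin of simple and ductal epithelia. Krt18 lies at chr15:102027966-102028265, plus strand, and Krt90 at chr15:101562901-101563200, minus strand. Krt28 (chr11:99374854-99375153, minus strand) is a keratin of the inner root sheath of hair, and Krtap3-2 (chr11:99556804-99557103, minus strand) is a hair shaft protein. Prr9 (chr3:92123898-92124197, minus strand) and Crnn (chr3:93144539-93144838, plus strand), which encodes cornulin, belong to the EDC.
Krt7: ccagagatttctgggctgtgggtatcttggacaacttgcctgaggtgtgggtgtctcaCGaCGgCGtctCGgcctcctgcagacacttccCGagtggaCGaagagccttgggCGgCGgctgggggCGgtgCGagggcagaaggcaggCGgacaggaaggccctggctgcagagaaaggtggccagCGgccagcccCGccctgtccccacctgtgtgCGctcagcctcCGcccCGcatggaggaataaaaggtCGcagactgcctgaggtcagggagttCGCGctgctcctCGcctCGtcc
Krt18: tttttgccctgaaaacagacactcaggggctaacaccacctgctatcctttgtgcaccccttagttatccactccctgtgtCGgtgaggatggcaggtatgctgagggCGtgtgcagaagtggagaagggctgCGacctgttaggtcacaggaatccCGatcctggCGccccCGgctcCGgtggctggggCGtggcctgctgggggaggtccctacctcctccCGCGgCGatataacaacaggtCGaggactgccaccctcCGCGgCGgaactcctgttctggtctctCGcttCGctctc
Krt90: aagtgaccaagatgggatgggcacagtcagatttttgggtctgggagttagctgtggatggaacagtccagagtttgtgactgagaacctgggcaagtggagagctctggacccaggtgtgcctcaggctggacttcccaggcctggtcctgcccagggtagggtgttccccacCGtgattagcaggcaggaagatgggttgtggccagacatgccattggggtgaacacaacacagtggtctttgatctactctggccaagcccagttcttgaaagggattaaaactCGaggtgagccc
Krt28: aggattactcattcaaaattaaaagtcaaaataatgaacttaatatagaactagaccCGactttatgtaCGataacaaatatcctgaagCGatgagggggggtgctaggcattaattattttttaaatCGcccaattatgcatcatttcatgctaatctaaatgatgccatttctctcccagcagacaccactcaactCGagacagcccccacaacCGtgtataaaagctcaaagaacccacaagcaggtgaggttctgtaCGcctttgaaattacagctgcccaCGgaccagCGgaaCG
Krtap3-2: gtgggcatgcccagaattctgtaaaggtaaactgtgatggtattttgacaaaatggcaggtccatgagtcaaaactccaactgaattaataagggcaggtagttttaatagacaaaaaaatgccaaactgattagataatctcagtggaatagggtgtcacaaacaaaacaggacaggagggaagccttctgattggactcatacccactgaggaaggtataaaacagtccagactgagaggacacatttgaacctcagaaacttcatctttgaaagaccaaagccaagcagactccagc
Prr9: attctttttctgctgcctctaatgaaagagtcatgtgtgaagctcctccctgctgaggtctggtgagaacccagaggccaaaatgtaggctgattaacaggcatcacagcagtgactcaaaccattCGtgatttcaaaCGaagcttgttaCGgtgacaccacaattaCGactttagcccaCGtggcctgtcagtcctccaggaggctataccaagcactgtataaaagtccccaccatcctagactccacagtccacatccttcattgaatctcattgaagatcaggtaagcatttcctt
Crnn: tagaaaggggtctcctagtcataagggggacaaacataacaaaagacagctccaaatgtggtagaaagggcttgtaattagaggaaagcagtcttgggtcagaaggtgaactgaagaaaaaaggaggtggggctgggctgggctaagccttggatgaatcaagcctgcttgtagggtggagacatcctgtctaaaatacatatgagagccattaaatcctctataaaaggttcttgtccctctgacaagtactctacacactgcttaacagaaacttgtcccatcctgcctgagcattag

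Krt7 held 21 CpG and Krt18 held 17, and they were the only windows of the 7 lists, simple epithelial keratins apart, with 15 or more. Krt90 held 2, Krt28 held 10, Krtap3-2 held 0, Prr9 held 5 and Crnn held 0. Krtap3-2 is 1 of 8 windows with 0 CpG in the type I lists and Crnn 1 of 11 in the EDC lists, among them Ivl and Sprr3, and Sprr2d held 5 like Prr9. Of 17 type I epithelial keratins, 10 type I hair keratins and 23 Krtap genes in the reference, 12, 8 and 21 had a window. Of 20 type II epithelial and 6 type II hair keratins, 14 and 2 had one, as did 39 of 45 genes listed under cornified envelope and 7 of 7 S100-fused genes. Over all 32841 windows of the table the median was 7 CpG, 43.6% of windows held 5 or fewer and 34.6% held 15 or more. The 39 windows of the list labelled cornified envelope (Lce, Sprr, Lor, Ivl and other EDC genes, among them Smcp) had a median of 1 CpG. Of these windows 100% held 5 or fewer. The 7 windows of the S100-fused list had a median of 2, again with 100% at 5 or fewer. The Krtap list had a median of 2 over 21 windows, with 95.2% at 5 or fewer. Epithelial keratins lay nearer to the table as a whole, with medians of 6 CpG for type I (13 windows) and for type II (14 windows), and 46.2% and 42.9% of windows at 5 or fewer. The 8 windows of type I hair keratins had a median of 2.5, and the 2 of type II hair keratins had 3 and 6. Among the simple epithelial keratins, Krt8 and Krt20 held 6 CpG each, and Krt19 had no window in the table.

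**Figure D1:**
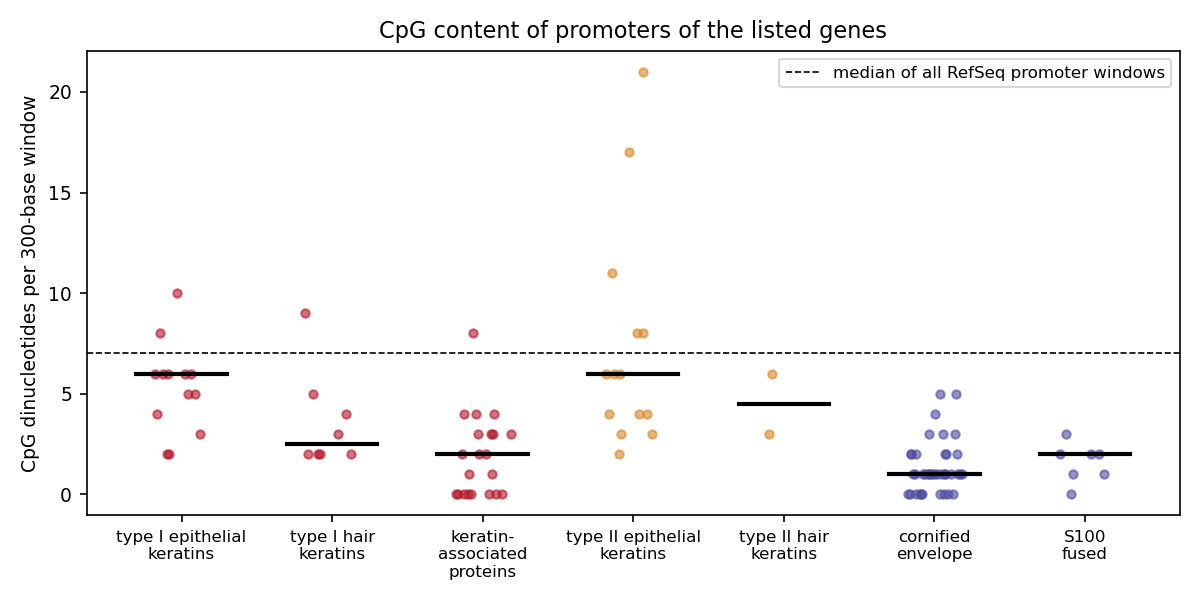
CpG dinucleotides per 300-base promoter window for the 7 gene lists (points, 1 per window; bars, list medians), with the median of all windows (7) as a dashed line. The cornified envelope and S100-fused windows lie at 5 or below, and the windows of Krt7 (21) and Krt18 (17) stand above the others.

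The clusters held unlike amounts of 5hmC signal. A ratio here divides the fraction of the hMeDIP library that falls in a region by the fraction of the input library that does, so that 1 is the mean of these libraries, and it measures signal relative to that mean rather than an amount of 5hmC. The type I cluster drew 4162 fragments from hMeDIP and 3670 from input, which gave a ratio of 0.826 (0.790 to 0.863). In the type II cluster 4066 and 2383 fragments gave 1.24 (1.18 to 1.31). In the EDC 2344 and 4361 fragments gave 0.391 (0.372 to 0.412). The autosomes together stood at 1.014, so the EDC lay far below and the keratin clusters to either side of that value. Scaled to the fragments outside peaks, which multiplies every ratio by 1.32, the type I cluster was at 1.09 (1.04 to 1.14), on the other side of 1. Comparisons between regions, which this scaling leaves alone, are therefore the firmer ones.

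Between clusters, the ratio of type I was 0.665 of that of type II (0.621 to 0.711) and 2.11 times that of the EDC (1.97 to 2.26). Type II over EDC was 3.17 (2.95 to 3.41). All 3 differences exceeded counting error. The chromosomes do not rank the same way. Chromosome 11, which carries type I, stood at 1.23, chromosome 15 with type II at 1.03 and chromosome 3 with the EDC at 0.848, so the type I and EDC clusters lay below their chromosomes. Type II lay above its own with the bounds as given and not with bounds 50 kb further in (0.974).

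Against the neighbouring megabases, both keratin clusters were low. The type I cluster, at 0.826, stood between a left flank at 2.33 (2.24 to 2.42) and a right flank at 2.31 (2.23 to 2.41). Its ratio over both flanks together was 0.356 (0.337 to 0.375). The type II cluster, at 1.24, lay between 2.65 (2.55 to 2.75) on the left and 1.58 (1.52 to 1.65) on the right. It stood at 0.587 of both flanks (0.554 to 0.622), 0.469 of the left one (0.440 to 0.5) and 0.784 of the right one (0.734 to 0.837). A ratio near 1 in the keratin clusters was thus a trough in its surroundings.

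The EDC had unlike sides. Its left flank was lower still, at 0.263 (0.235 to 0.294) from 427 hMeDIP and 1182 input fragments, and the EDC stood 1.49-fold above it (1.32 to 1.68). Its right flank was at 1.13 (1.05 to 1.21) from 1954 hMeDIP and 1264 input fragments, and the EDC stood at 0.348 of it (0.318 to 0.380). Over both flanks the value was 0.552 (0.512 to 0.596), a mean of sides that go opposite ways. Input was sparse in both EDC flanks, at 11.8 fragments per 10 kb on the left and 12.6 on the right, against 31.1 in the EDC itself and 32.1 to 36.1 in the keratin clusters and their flanks. On the left 43 of 100 bins held under 10 input fragments and 4 held none. On the right 64 held under 10 and 26 held none, so much of the right flank was hardly measured. The 100 kb starting at 93200001, at 93300001 and at 94100001 held 346, 343 and 348 of the 1264 input fragments of the right flank. Without bins under 10 input fragments the EDC over both flanks was at 0.525, and without bins of extreme or no input it was at 0.555 (0.514 to 0.599), against 0.552 with all bins.

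**Figure D2:**
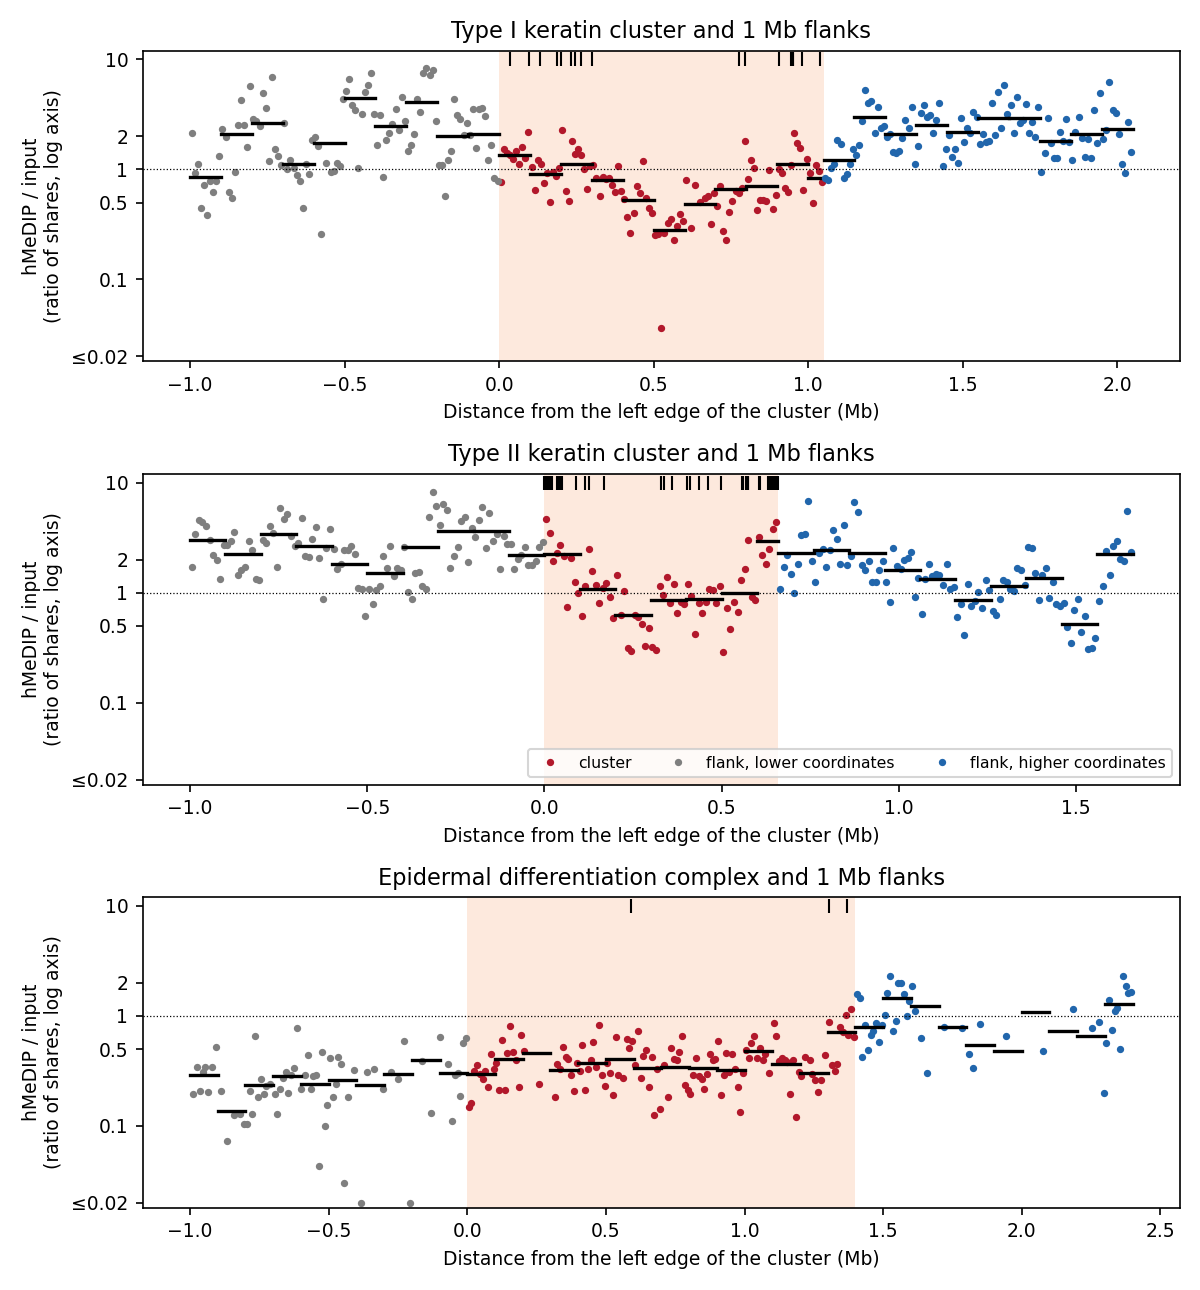
hMeDIP over input ratio (log axis) against distance from the left edge of each cluster in Mb, for merged 10 kb bins (points), 100 kb steps (black lines) and peaks of the clusters (ticks at the top); the shaded span is the cluster, and bins at or under 0.02 are drawn at 0.02. Both keratin clusters are lowest in their inner steps (0.283 in type I, 0.624 in type II), though a step of the right type II flank is lower still (0.517), whereas the EDC is low throughout and continues the low left flank.

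Single bins showed the same contrast. Bins under 10 input fragments were merged with their neighbours, which left 103 type I, 66 type II and 126 EDC bins. The median type I bin had a ratio of 0.703 (quartiles 0.513 and 1.09), against 1.96 in the left and 2.10 in the right flank. The median type II bin had 0.970 (0.663 and 1.54), against 2.55 and 1.43. The median EDC bin had 0.368 (0.277 and 0.469), against 0.243 and 0.860. The median of all 227204 autosomal bins was 0.702, and among these the type I median ranked at the 50th percentile, the type II median at the 62.7th and the EDC median at the 24.9th. The flank medians of type I ranked at the 87.0th and 88.8th percentiles. The median type I bin is therefore ordinary for the autosomes and low for its place.

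Bins were counted as low at a ratio of 0.5 or less and as high at 2 or more. On the autosomes 36.6% of bins were low and 12.5% high. In the EDC 99 of 126 bins were low (78.6%) and 0 were high, and the highest bin reached 1.16. In the type I cluster 24 of 103 bins were low (23.3%) and 3 high (2.91%), both below the autosomal shares, with 76 bins between the limits. In the type II cluster 9 of 66 were low (13.6%) and 13 high (19.7%). In the flanks of type I, 48.5% of bins on the left and 54.0% on the right were high. Type II had 64.0% high bins in its left and 24.0% in its right flank. The EDC had 89.6% low bins in its left flank (60 of 67 merged bins), a larger share than its own. Its right flank had 15.6% low bins (7 of 45) and 6.67% high bins (3 of 45). The split of calls depends on the scaling. Scaled to the fragments outside peaks, type I had 15 low and 10 high bins, type II 6 low and 17 high, and the EDC 66 low and 0 high, beside 25.8% low and 20.7% high on the autosomes.

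**Figure D3:**
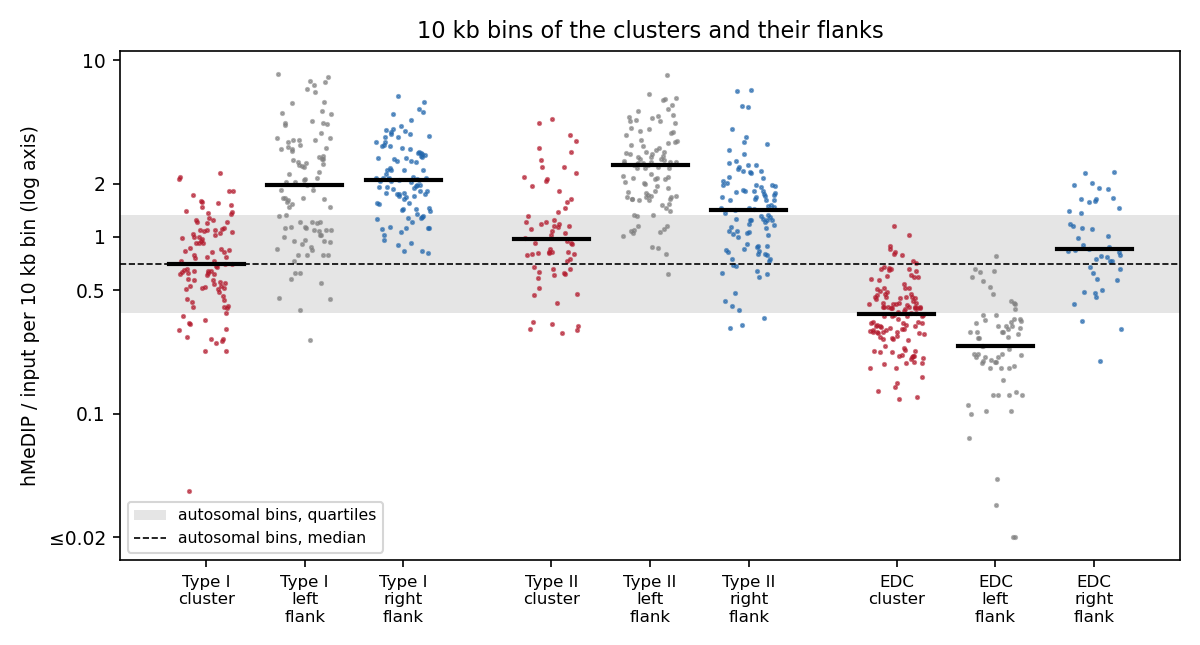
Ratio of hMeDIP over input (log axis) in merged 10 kb bins of each cluster and its left and right flanks (points; bars, medians), with the median (dashed) and quartiles (grey) of autosomal bins. The type I bins sit around the autosomal median of 0.702 while both their flanks lie above it, and the EDC bins lie mostly below the median.

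The clusters also differed in how even they were inside. The SD of the log2 ratio over bins, with 1 fragment added to each library, was 0.84 in type I and 0.96 in type II, against 0.38 and 0.34 expected from counting. In the EDC it was 0.61, against 0.45 from counting, so less of its spread lay beyond counting error.

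Within the type I cluster the signal formed a trough with 2 shoulders. In 100 kb steps from the left edge, the ratios over the 4 opening steps were 1.36 (1.19 to 1.56), 0.901, 1.13 and 0.805. The next 3 steps, from 99450001 to 99750000, were at 0.532 (0.452 to 0.626), 0.283 (0.227 to 0.351) and 0.486 (0.390 to 0.606). The remaining steps stood at 0.662, 0.700, 1.12 and, over the last 50 kb, 0.831. The highest step was 4.81 times the lowest, and their intervals lay far apart. Both steps were picked by their ratios, as are the highest and lowest bins named below, and the intervals do not cover that choice. The longest run of low bins covered 120 kb, from 99530001 to 99650000, at 0.306 (0.252 to 0.371) from 153 hMeDIP and 364 input fragments, with 0 peaks. On its left the cluster was at 0.956 (0.899 to 1.02) and on its right at 0.794 (0.740 to 0.852). A run of low bins is picked by its ratios, here and in the clusters below. Its low value therefore follows from that choice, which the intervals do not cover. Input density was 30.3 fragments per 10 kb in the run, 37.7 to its left and 33.3 to its right. Of the edges of the cluster, the left one showed a step, with 1.36 in the 100 kb inside and 2.11 (1.86 to 2.39) in the 100 kb outside, a ratio of 0.646 (0.536 to 0.779). At the right edge the values were 1.16 (1.01 to 1.32) inside and 1.21 (1.05 to 1.39) outside, and the ratio of 0.954 (0.784 to 1.16) spanned 1. In the gene order given above the Krtap genes likewise stand between 2 blocks of keratin genes, but whether the run coincides with them was not tested, since no mm9 annotation was used here.

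The lowest bins of the type I cluster rest on few fragments. The lowest of all was 99570001 to 99580000, at 0.0364 (0.000878 to 0.228) from 1 hMeDIP and 20 input fragments. Next were 99610001 to 99620000, with 10 and 32 fragments and 0.227 (0.0998 to 0.474), and 99780001 to 99790000, with 5 and 16 and also 0.227 (0.0652 to 0.650). The highest were 99250001 to 99260000 at 2.29 (1.47 to 3.68) from 85 hMeDIP and 27 input fragments, 99140001 to 99150000 at 2.18 (1.35 to 3.67) from 69 and 23, and 100000001 to 100010000 at 2.14 (1.42 to 3.30) from 94 and 32. Each of these 3 held a peak, and so could not lie wholly within the 475 kb without peaks described below.

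The type II cluster was high at both ends and lower between them. Its steps from the left edge were 2.25 (2.0 to 2.55), 1.09, 0.624 (0.526 to 0.739), 0.854, 0.882, 0.998 and, over the last 60 kb, 2.96 (2.48 to 3.55). The end steps had intervals above 1. In the gene order Krt80 and Krt7 stand at the low and Krt8 and Krt18 at the high coordinates. Whether the end steps hold these genes was not tested, since no mm9 annotation was used here. Values just outside the edges were close to those inside. The 100 kb inside the left edge were at 2.25 and the 100 kb outside at 2.20 (1.94 to 2.49), a ratio of 1.03 (0.861 to 1.22). At the right edge the values were 2.15 (1.89 to 2.45) inside and 2.28 (2.01 to 2.59) outside, a ratio of 0.944 (0.786 to 1.13). Neither difference was detectable at this depth. With the bounds moved inward by 50 kb the ratio of the cluster was 0.974 (0.919 to 1.03), against 1.24 with the bounds as given.

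The 3 highest type II bins all touched or neared an edge. They were 101200001 to 101210000, at 4.65 (3.23 to 6.88) from 217 hMeDIP and 34 input fragments, with 4 peaks, 101850001 to 101860000, at 4.40 (2.87 to 7.01) from 151 and 25 fragments, with 6 peaks, and 101840001 to 101850000, at 3.8 (2.42 to 6.22) from 120 and 23 fragments, with 4 peaks. The 3 lowest lay inside. These were 101700001 to 101710000 at 0.288 (0.160 to 0.499), 101440001 to 101450000 at 0.298 (0.162 to 0.526) and 101510001 to 101520000 at 0.301 (0.140 to 0.609). The longest run of low bins was short, 40 kb from 101480001 to 101520000, at 0.360 (0.246 to 0.520) from 45 hMeDIP and 91 input fragments. Its input density was 22.8 fragments per 10 kb, against 36.0 to its left and 37.8 to its right, and the part of this in the result was not tested.

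The EDC was low from end to end. Of its 14 steps of 100 kb, 13 had ratios of 0.5 or less, from 0.296 to 0.479, and all 14 had intervals below 1. The exception was the last step, 93100001 to 93200000, at 0.720 (0.624 to 0.832) from 384 hMeDIP and 388 input fragments. In the gene order the EDC closes on that side with the S100-fused genes, but whether they lie in that step was not tested. The change went on beyond the edge, where the next 100 kb stood at 0.787 (0.678 to 0.913), and the inside over outside ratio was 0.916 (0.743 to 1.13). At the left edge the inside stood at 0.296 (0.241 to 0.361) and the outside at 0.302 (0.225 to 0.401). Inside over outside was 0.981 (0.689 to 1.40), so that no step was detectable there.

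All 3 of the highest EDC bins lay in that last step, at 93180001 to 93190000 with 1.16 (0.792 to 1.73), 93160001 to 93170000 with 1.03 (0.708 to 1.5) and 93100001 to 93110000 with 0.885 (0.560 to 1.41). Their intervals span 1. The lowest bins were 92980001 to 92990000, at 0.121 (0.0527 to 0.248) from 9 hMeDIP and 54 input fragments, 92470001 to 92480000 at 0.125 (0.0429 to 0.300) and 92780001 to 92790000 at 0.134 (0.0505 to 0.304). The longest run of low bins was 180 kb, from 92920001 to 93100000, at 0.307 (0.264 to 0.357) from 253 hMeDIP and 599 input fragments. The rest of the cluster to its left was hardly higher, at 0.368 (0.347 to 0.391). A stretch of 60 kb in the EDC held 0 input fragments, in the step from 92000001 to 92100000, and that step rests on 23 hMeDIP and 36 input fragments.

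**Figure D4:**
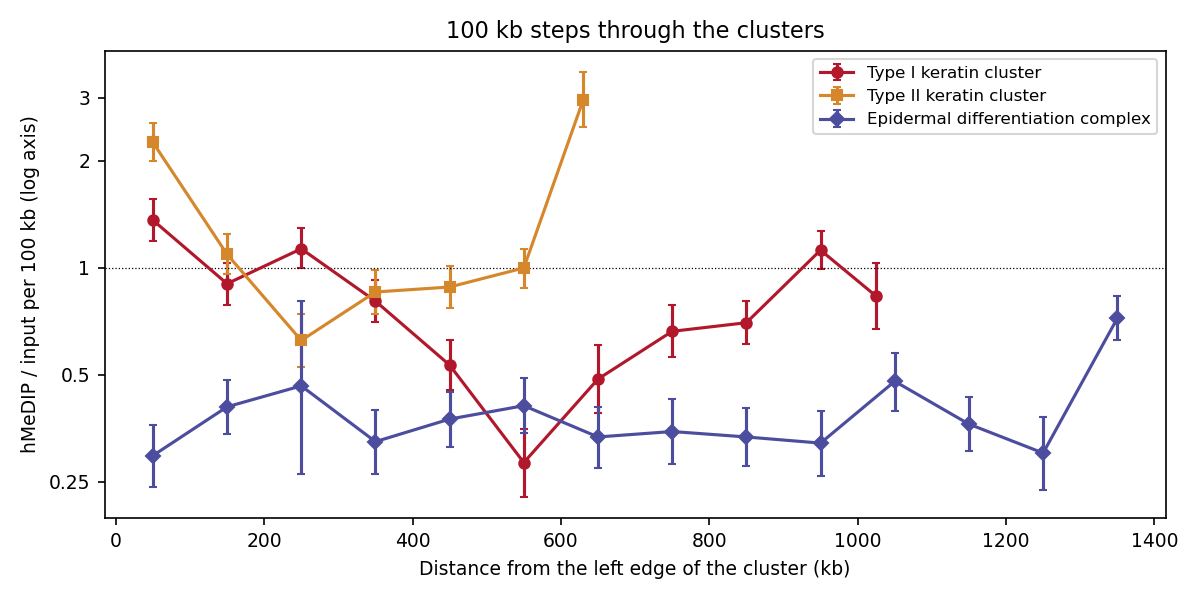
Ratio of hMeDIP over input (log axis) in 100 kb steps from the left edge of each cluster, in kb, with 95% counting intervals as bars; the last step is 50 kb in type I and 60 kb in type II. Type I has its minimum of 0.283 in the middle, type II is highest at its ends (2.25 and 2.96), and the EDC stays at 0.479 or below until its last step (0.720).

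The authors' list of 92654 peaks gave the same order of clusters. By midpoint, 46 peaks lay in the type II cluster, 17 in type I and 3 in the EDC. Per Mb these are 69.7, 16.2 and 2.14 peaks, beside 37.3 on the autosomes. Type I had 131 peaks in its left and 159 in its right flank. Type II had 176 on the left and 86 on the right. The EDC had 0 on the left and 18 on the right. At least 1 peak stood in 15.5% of type I bins, 37.9% of type II bins and 2.38% of EDC bins, beside 23.4% of autosomal bins. The list is deposited with the hMeDIP library, though whether it was called on this library alone is not known, so the number of peaks is not taken as independent of the ratios.

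**Figure D5:**
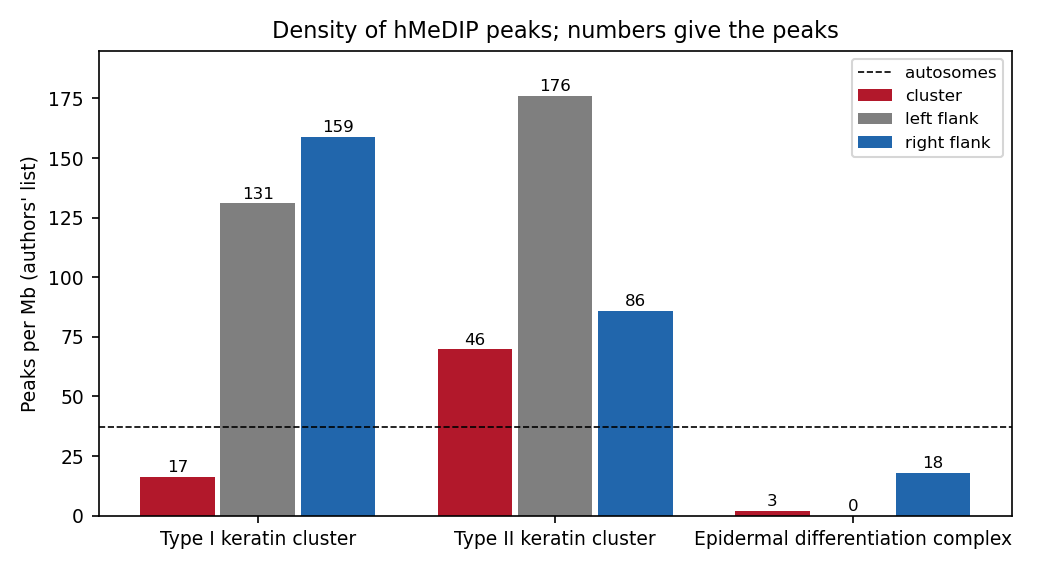
Peaks of the authors' list per Mb in each cluster and in its left and right 1 Mb flanks, with the number of peaks on each bar and the autosomal density (37.3 per Mb) as a dashed line. Each keratin cluster has fewer peaks per Mb than either of its flanks, and the EDC has 3 peaks in all.

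Peaks of the type II cluster crowded its ends. Within 100 kb of an edge lay 34 of its 46 peaks, 15 on the left and 19 on the right, which makes 170 per Mb there against 26.1 per Mb deeper inside. In type I, 6 of 17 peaks lay within 100 kb of an edge, at 30.0 per Mb, against 12.9 deeper inside. The longest stretch between peaks in type I reached from 99353104 to 99827912, 475 kb with a ratio of 0.528 (0.488 to 0.572). In type II it was 160 kb, from 101368113 to 101528075, at 0.656 (0.576 to 0.746). In the EDC it was 712 kb, from 92391647 to 93103678, at 0.355 (0.330 to 0.382). Each stretch was chosen for holding no peak, so a ratio below that of its cluster follows in part from that choice. The intervals do not cover it.

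The authors' score is used here only to rank peaks within the list. Median scores were 68.2 in type I, 72.0 in type II and 68.8 in the EDC, beside 85.8 over autosomal peaks. A score of 100 or more was reached by 4 of 17 peaks in type I, 14 of 46 in type II and 0 of 3 in the EDC, against 40.1% of autosomal peaks. Median widths were 1076 bp in type I, 1138 bp in type II and 663 bp in the EDC, beside 1153 bp on the autosomes. The median fold over input, with 1 fragment added in each library, was 4.37 in type I, 4.41 in type II and 6.92 in the EDC, beside 4.37 on the autosomes. The EDC values rest on 3 peaks.

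The peaks with the highest scores stood as follows. In type II they were 101804395 to 101807316 (score 319.93, 73 hMeDIP and 8 input fragments, ratio 6.64, 3.20 to 16.0) and 101201826 to 101204838 (score 313.33, ratio 5.82, 3.01 to 12.6), which were also the widest of the cluster at 2922 and 3013 bp. After them came 101200137 to 101201803 (score 262.28, ratio 9.83), 101768894 to 101770684 (score 166.68, ratio 4.97) and 101247691 to 101249373 (score 149.95, ratio 4.0). In type I the peak with the top score was 99845074 to 99847395 (score 225.83, 2322 bp, 54 hMeDIP and 7 input fragments, ratio 5.62, 2.55 to 14.6), higher than all but 9.77% of autosomal peaks. It lies beyond the right end of the 475 kb without peaks, and the peak at 99827913 to 99828775 stands between. The next were 99295755 to 99296790 (score 109.12, ratio 10.6), 100000871 to 100002077 (score 103.21, ratio 6.07), 100002144 to 100002956 (score 100.47, ratio 5.58) and 99249850 to 99250749 (score 84.95, ratio 8.01), each on 2 or 3 input fragments.

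The EDC held 3 peaks, of which 2 lay in its last 100 kb. The one deeper inside the cluster was 92390984 to 92391646, which had a score of 68.43 and 18 hMeDIP fragments beside 1 in the input. The second was 93103679 to 93104130, which had a score of 97.60 and 15 hMeDIP fragments beside 0 in the input. The third was 93168344 to 93170077, which had a score of 68.84 and 33 hMeDIP fragments beside 5 in the input, for a ratio of 4.80 (1.86 to 15.8).

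Fragments outside the called peaks carried the same contrasts between clusters and both flanks in smaller size. Peaks covered 1.92% of the type I cluster, against 20.6% of its left and 21.3% of its right flank. Their removal therefore lowers those flanks more, and some of the smaller size follows from that. Without fragments in peaks, with the totals of all fragments kept as denominators, the ratios were 0.753 (0.719 to 0.788) in type I, 0.918 (0.868 to 0.971) in type II and 0.381 in the EDC. With those denominators a ratio of 1 is not the mean of the fragments that remain, so these values are not to be read against 1. The clusters over both flanks were then at 0.560 (0.528 to 0.593), 0.709 (0.664 to 0.756) and 0.639 (0.590 to 0.691). Over its flanks the type I cluster was thus at 0.560 in place of 0.356.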

How the data were processed

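CASAVA, Bowtie 1.0.0 and the build mm9 are listed in the submitters' processing notes. Each line of the deposited position files gives a 350 bp stretch, a strand and a whole-number count, read here, from the values alone, as 1 fragment and its reads. How the authors made the stretches is not stated. The deposited peak list carries a score per peak from MACS, per the file headers, starting at 50. Its control and threshold are unstated, and its track line has a numbered range, so whether it was called on this library alone is not known.

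Fragments were assigned by midpoint. Ratios carry exact conditional binomial 95% intervals, and ratios of 2 regions the exact conditional interval of the odds ratio (scipy 1.17.1, Python 3.11.15). Without molecular identifiers, reads may be copies of 1 molecule, which the counting intervals leave out. Bins under 10 input fragments were merged with the following ones. In the clusters 16 of 311 bins were under this limit, and in the flanks 108 of 600. A median autosomal bin held 35 hMeDIP and 36 input fragments. The interval and merging steps were tested on simulated counts. Named bins are the 3 highest and 3 lowest of each cluster, and named peaks the 5 with the highest score. Regions, gene lists and rules were chosen with earlier results of these data known. RefSeq sequences and gene order are on GRCm38.p6. Coordinates of bins and peaks are 1-based on mm9.

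Alternatives covered scaling, fragment length, read weighting, extreme input, peaks, bounds, flanks, bin size, fold and input minimum. Strands and the removal of bins with low input were added after seeing the data.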

Additional observations from a re-analysis of the deposited data

Results flagged for a closer look

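The number of reads per position was not used in the comparisons above. In all 3 clusters a larger share of positions held 2 or more reads in the hMeDIP library than in the input, which is why these values are listed. In the type I cluster the share was 1.18% of hMeDIP positions (0.872 to 1.55, exact Clopper-Pearson) and 0.245% of input positions (0.112 to 0.465). In the type II cluster it was 1.5% (1.15 to 1.92) and 0.336% (0.145 to 0.660). In the EDC it was 1.07% (0.691 to 1.57) and 0.229% (0.110 to 0.421). Over all positions the shares were 1.33% and 0.384%. No position of the clusters held more than 3 reads.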

How the results depend on the processing

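Of 135 values under alternatives, 98 kept their direction and stayed within the interval of the main value or, for counts and shares, within 1.5 times of it, 33 moved and 4 turned. Some of the 98 could not have moved, since scaling to the fragments outside peaks leaves every comparison between regions as it is. Scaled to the fragments outside peaks (0.40 added on the log2 scale), the ratios were 1.09 for type I (turned), 1.64 for type II and 0.517 for the EDC. Without fragments in peaks they were 0.753 and 0.918 (turned) for the keratin clusters, the values over flanks were 0.560, 0.709 and 0.639, type I over type II was 0.820 and type II over EDC was 2.41. The totals of all fragments were kept there, so 1 is not the mean of the remaining fragments. That turn of type II therefore does not place it below their mean. With bounds 50 kb further in, type II was at 0.974 (turned) and 0.460 of its flanks, the EDC at 0.371, type I over type II at 0.826 and type II over EDC at 2.63. Flanks of 500 kb gave 0.318, 0.530 and 0.476. The left or the right flank alone gave 0.469 and 0.784 for type II, and 1.49 (turned) and 0.348 for the EDC. On the plus or the minus strand alone the EDC was at 0.371 or 0.412. Among the higher-scoring peaks, above the median score of the list, 4, 17 and 1 lay in the clusters. The share of low bins at a fold of 1.5 was 46.6% in type I and 25.8% in type II. It was 14.6% in type I when scaled outside peaks, and 12.6% in type I and 45.2% in the EDC when centred on the median bin. The share of high type I bins was 9.71% at a fold of 1.5 and when scaled outside peaks, 11.7% when centred on the median bin, 4.69% in 5 kb bins and 0% in 20 kb bins. The causes were not tested, beyond what each alternative removes or rescales. Fragments of 150 bp, read weighting and removal of extreme input moved none of the cluster ratios, values over flanks or values between clusters. No paired analysis was possible because each group has 1 library. Depth limits single 10 kb bins to about 36 input fragments.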
